A study of Homo sapiens with 6 samples.

Results

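Glucose and lactate cross the membranes of human cells through carrier proteins of a few families, and 10 genes of this kind were followed by RNA sequencing in ARPE-19, an established line of human retinal pigment epithelium (RPE), held in 37.5 mM glucose. They comprised 7 genes of the GLUT (SLC2A) family, namely SLC2A1, SLC2A3, SLC2A6, SLC2A8, SLC2A10, SLC2A12 and SLC2A13, the lactate carriers SLC16A1 and SLC16A3, and BSG, whose product accompanies those lactate carriers to the cell surface. The genes were taken by symbol, each symbol matched 1 row of both tables, and they are 10 of the 20461 listed genes with an Ensembl identifier. All 10 passed the filter on low counts. Each table holds 1 value per gene and library, so the use of the family was read from the levels of its separate genes.

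All cells had been transduced with a lentivirus at a multiplicity of infection of 10, selected with 4 µg/ml puromycin from 48 h on, and kept in 37.5 mM glucose for 48 h. In the control group (n = 3 libraries) the virus was a control lentivirus, and in the PDZK1 group (n = 3 libraries) it carried PDZK1, a scaffold protein with PDZ domains that binds the tails of membrane transporters. The promoter of the vector is not given in the sources used here, and cells in normal glucose were not analysed here. Nothing in the labels ties libraries to separate cultures, so p-values measure the spread between these libraries, which may be technical.

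In the eye, the RPE stands between the choroidal blood and the photoreceptors. GLUT proteins let glucose move down its gradient, and GLUT1 (SLC2A1) carries it across the RPE towards the retina. Photoreceptors return lactate, which proton-coupled monocarboxylate transporters (MCT, the SLC16 family) move through the RPE in either direction according to the gradient, and MCT1 (SLC16A1) and MCT4 (SLC16A3) need the membrane glycoprotein basigin (BSG) to reach the surface.

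Total counts ran from 27970618 to 32804567 per library. PDZK1 checked the labels, with 18 to 23 counts per control library against 2541 to 3020 per PDZK1 library (log2 fold change 7.03, SE 0.131, edgeR adjusted p = 8.16e-09). Of 12 RPE markers, 7 exceeded a mean of 1 FPKM (fragments scaled by transcript length and by mapped fragments, a level per length). The summed level of the RPE markers was 1025 to 1180 FPKM in the control and 1078 to 1217 FPKM in the PDZK1 libraries, and most of it came from KRT8 and KRT18, keratins of simple epithelia. The defining visual cycle gene RPE65 and TTR were at 0 in every library, and BEST1 reached 358 CPM in PDZK1 replicate 1 against 4.32 to 5.6 CPM (counts scaled to library size by TMM) in the other libraries. Markers of other cells were near 0, with summed levels of at most 0.109 FPKM for 4 endothelial genes and 0.187 FPKM for 4 photoreceptor and neuron genes, and 0 for 3 erythroid genes. Of 3 leukocyte genes PTPRC and CD3E were at 0, while CD68, a lysosomal gene that cells other than macrophages also express, lay at 66.5 to 85.8 FPKM.

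BSG and the lactate carrier gene SLC16A3 were more abundant than any of the GLUT genes in these cells. Per length, BSG had the highest mean level over the 6 libraries (622 FPKM, 608 to 640), followed by SLC16A3 (288 FPKM, 272 to 300) and SLC2A1 (84.3 FPKM, 76.7 to 101). SLC16A1 (39.2 FPKM) and SLC2A6 (32.9 FPKM) came next and overlapped in range. Below them stood SLC2A3 (8.6 FPKM), then SLC2A8 (5.27 FPKM) and SLC2A12 (3.6 FPKM), which overlapped, and then SLC2A13 (2.13 FPKM). SLC2A10 was the lowest at 1.03 FPKM. The ranges of all other neighbours in this order were separate.

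**Figure D1:**
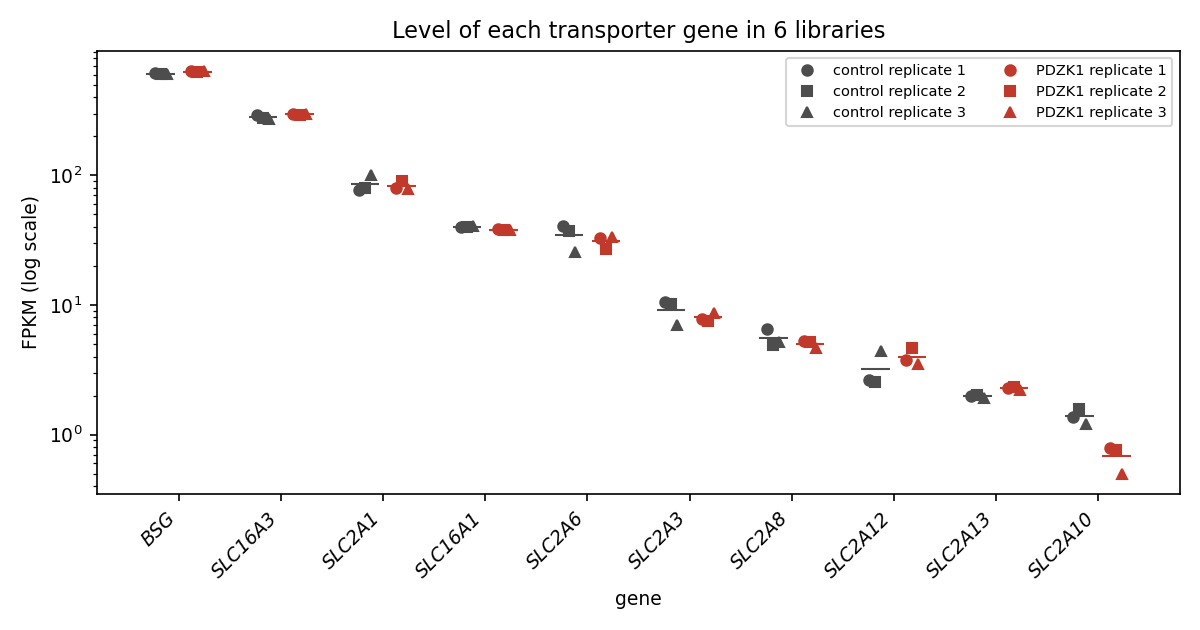
Level of each of the 10 genes in FPKM (log axis) in 3 control libraries (grey) and 3 PDZK1 libraries (red), with horizontal lines at the group means. BSG lies highest (608 to 640 FPKM) and SLC16A3 next (272 to 300 FPKM), each varying little between libraries. SLC2A10 is the lowest gene, with its 3 PDZK1 libraries (0.497 to 0.783 FPKM) below its 3 control libraries (1.21 to 1.58 FPKM).

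The comparison of the groups asked whether PDZK1 overexpression changed the transcripts of these carriers in high glucose. One of the 10 genes passed the threshold (edgeR, adjusted p under 0.05), SLC2A10, which was lower in the PDZK1 libraries. Over all 13645 genes tested, 3.83% passed, 1.41% on the higher and 2.41% on the lower side. For the other 9 genes no change passed the test. Control and PDZK1 libraries were fully separate in 4 of the 10 genes (SLC2A10, SLC2A13, SLC16A1 and BSG), against 23.9% of all genes tested. The median log2 fold change of the 10 genes was -0.081, against -0.00025 over all genes tested, with 4 genes above 0 and 6 below. The 95% interval of the change lay inside a 1.5-fold change either way for 7 of the 10 genes, against 78.4% of all genes tested, and the exceptions were SLC2A6, SLC2A10 and SLC2A12. Because whole cultures were sequenced, fewer cells expressing a gene and less RNA of it per cell cannot be told apart.

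SLC2A10 encodes GLUT10, a carrier of the secretory pathway known for moving dehydroascorbic acid, the oxidised form of vitamin C, and for its loss in arterial tortuosity syndrome. The gene (ENSG00000197496) lies on the plus strand of chromosome 20 at 46709487 to 46736347 (GRCh38). The control libraries held 164, 185 and 129 of its counts, and the PDZK1 libraries held 115, 95 and 72. Every PDZK1 library thus lay below every control library. The level fell from 5.25 ± 0.673 CPM to 2.92 ± 0.66 CPM (SD, n = 3 each), a fold of 0.557. On the log2 scale this was a change of -0.85 with an SE of 0.198 (95% interval -1.29 to -0.40, edgeR adjusted p = 0.0482). This call lay close to the threshold and was lost in 11 of 17 alternatives (adjusted p from 0.0125 to 0.199), with the log2 fold change between -1.02 and -0.51 throughout. With the replicate number as a block the adjusted p was 0.107, and of the fits without one library each only that without control replicate 3 kept the call (-0.92, adjusted p = 0.031).

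The start of SLC2A10 is shown because it is the one gene of the 10 that passed. The letters are the bases upstream of its annotated exons within the 250 bases before a RefSeq start (GRCh38.p14, plus strand, chr20:46709399-46709486).
SLC2A10: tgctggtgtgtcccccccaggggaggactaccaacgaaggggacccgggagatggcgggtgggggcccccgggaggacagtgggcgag
The whole 250-base window had a GC content of 76.8%, against a median of 58% over 35116 human promoters. It held the core of the hypoxia response element, ACGTG, 1 time on either strand, in the annotated exon that is not printed, and the GC box GGGCGG 3 times. Windows with these letters made up 18.5% (ACGTG) and 42.6% (GGGCGG) of all promoters. Around SLC2A10, the 20 nearest tested genes spanned 1.84 Mb, had a median log2 fold change of 0.019, and none of them passed the threshold.

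SLC2A10 was also the gene of the 10 in which the length behind the FPKM varied most. Dividing counts, scaled to the library total, by FPKM gives the transcript length the authors' values rest on, and it moves when the mix of long and short transcripts assigned to a gene moves. For SLC2A10 this length was 3.74, 3.78 and 3.84 kb in the controls, against 4.6, 3.84 and 4.59 kb under PDZK1 overexpression (replicates 1 to 3). PDZK1 replicates 1 and 3 thus stood apart, and PDZK1 replicate 2 was level with control replicate 3. The highest value exceeded the lowest 1.23 times, a wider spread than in 89% of 11842 genes with at least 50 counts in every library (median 1.04 times). SLC2A10 had the fewest counts of the 10 (72 to 185 per library), and it was not ranked among genes of similar counts. The other 9 genes varied by at most 1.07 times, the widest being SLC2A8 (2 to 2.14 kb). SLC2A1 ranged only from 3.63 to 3.68 kb. For this reason the FPKM of SLC2A10 set the groups further apart (1.36, 1.58 and 1.21 against 0.783, 0.756 and 0.497 FPKM) than its CPM did, and whether its transcripts changed was not tested, since the tables hold no value per transcript.

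**Figure D2:**
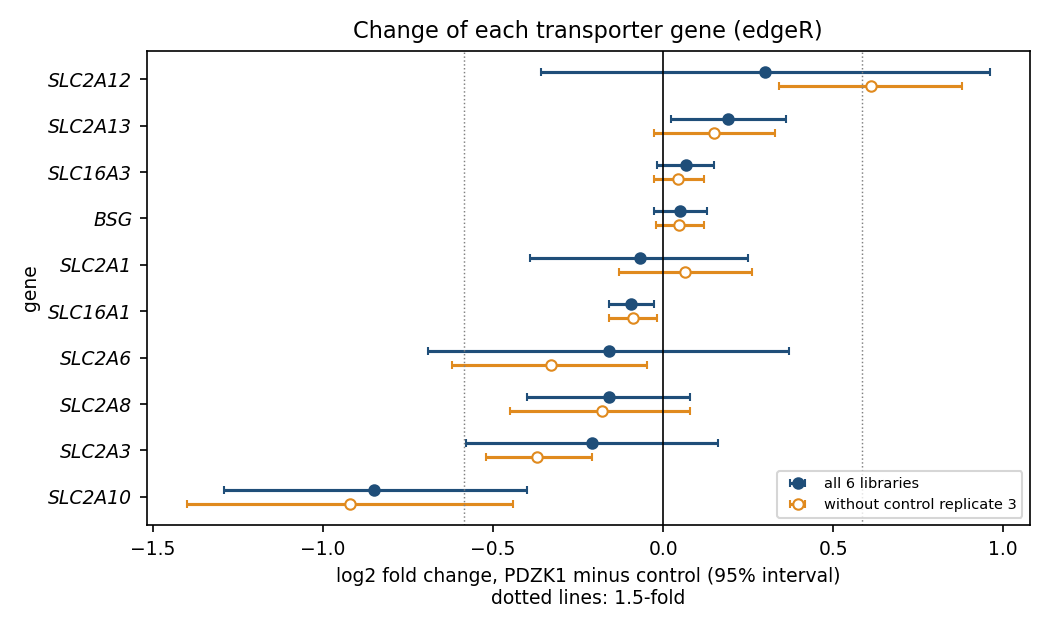
Log2 fold change of each gene, PDZK1 minus control, with its 95% interval (horizontal bars) from edgeR, with all 6 libraries (filled blue) and without control replicate 3 (open orange). Only SLC2A10 (-0.85) passed with all libraries, and SLC2A3 (-0.37) and SLC2A12 (0.61) passed in addition without control replicate 3, where their intervals narrowed.

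SLC2A1, the gene of the main glucose carrier GLUT1 (ENSG00000117394, chromosome 1, 42925375 to 42959176, minus strand), did not separate the groups. Its level was 76.7, 80.2 and 101 FPKM in the controls, against 79.8, 90.6 and 77.8 FPKM under PDZK1 overexpression. The highest library was control replicate 3 and the second highest PDZK1 replicate 2, and the groups overlapped. The means were 316 ± 48.6 CPM and 302 ± 27.5 CPM (SD, n = 3 each), with a log2 fold change of -0.068 (95% interval -0.39 to 0.25, SE 0.128, edgeR adjusted p = 0.848). Each library held 8901 to 10911 of its counts. Without control replicate 3 the value turned to 0.064 (95% interval -0.13 to 0.26). Its antisense gene SLC2A1-AS1 overlaps it, and genes on the opposite strand also overlap SLC2A12, SLC2A13, SLC16A1, SLC16A3 and BSG. Since the strandedness of the counts is not given in the sources used here, their reads may not be told apart.

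SLC2A3 and SLC2A12 also varied between libraries of a group. SLC2A3, which encodes GLUT3, the high-affinity carrier best known from neurons (ENSG00000059804, chromosome 12, 7919230 to 7936275, minus strand), had 10.5, 10.1 and 7.06 FPKM in the control and 7.84, 7.51 and 8.67 FPKM in the PDZK1 libraries. Control replicate 3 was the lowest of all 6, and the groups overlapped (38.4 ± 7.7 against 33.2 ± 2.42 CPM, log2 fold change -0.21, 95% interval -0.58 to 0.16, adjusted p = 0.549). SLC2A14, a near copy of SLC2A3 with which it can share reads, had 4 to 9 counts per library, against 815 to 1407 for SLC2A3. SLC2A3 also has 3 numbered pseudogenes. Reads of such copies already counted under SLC2A3 would not show in these counts, so the extent of sharing was not tested. SLC2A12, which encodes GLUT12 (ENSG00000146411, chromosome 6, 133988697 to 134052636, minus strand), had 2.63, 2.56 and 4.45 FPKM in the control and 3.78, 4.66 and 3.5 FPKM in the PDZK1 libraries. Control replicates 1 and 2 were the lowest of the 6, whereas control replicate 3 lay within the PDZK1 range (19.5 ± 6.52 against 24 ± 3.72 CPM, log2 fold change 0.30, 95% interval -0.36 to 0.96, adjusted p = 0.634).

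SLC2A6 and SLC2A8, whose carriers reside mainly on lysosomes and endosomes, did not change past the threshold. SLC2A6 encodes GLUT6, found on lysosomes (ENSG00000160326, chromosome 9, 133471095 to 133479137, minus strand), and was the second most abundant GLUT gene, at 40.6, 37.4 and 25.8 FPKM in the control and 33.1, 27 and 33.6 FPKM in the PDZK1 libraries. Its lowest value again came from control replicate 3 (90.2 ± 20.3 against 80.8 ± 9.94 CPM, log2 fold change -0.16, 95% interval -0.69 to 0.37, adjusted p = 0.767). SLC2A8 encodes GLUT8, a carrier of endosomal and lysosomal membranes (ENSG00000136856, chromosome 9, 127397138 to 127408424, plus strand), with 6.47, 4.95 and 5.19 FPKM in the control and 5.25, 5.15 and 4.63 FPKM in the PDZK1 libraries. The groups overlapped, although control replicate 1 was the highest and PDZK1 replicate 3 the lowest (11.6 ± 1.2 against 10.3 ± 0.641 CPM, log2 fold change -0.16, 95% interval -0.40 to 0.079, adjusted p = 0.493).

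SLC2A13 encodes HMIT, which cotransports protons with myo-inositol, an osmolyte, rather than glucose (ENSG00000151229, chromosome 12, 39755021 to 40106089, minus strand). Its level was 2, 2.02 and 1.91 FPKM in the control and 2.3, 2.32 and 2.22 FPKM in the PDZK1 libraries. All PDZK1 libraries lay above all control libraries. Its log2 fold change of 0.19 (SE 0.0757, 95% interval 0.024 to 0.36) had an unadjusted p of 0.0296 in edgeR's quasi-likelihood test and did not pass after adjustment (adjusted p = 0.219).

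The lactate carriers and BSG were the steadiest genes of the 10. The coefficient of variation of CPM over all 6 libraries was 2.01% for BSG, 3.4% for SLC16A3 and 3.67% for SLC16A1, against 8.02% to 34.5% for the 7 GLUT genes. This coefficient pools both groups, so it includes differences between them, and counting error adds more to it in genes with few counts. The 34.5% belongs to SLC2A10, with 72 to 185 counts per library against 21577 to 27393 for SLC16A3. SLC16A3 encodes MCT4, the carrier typical of lactate export from glycolytic cells (ENSG00000141526, chromosome 17, 82228397 to 82261129, plus strand), and had 291, 279 and 272 FPKM in the control and 300, 291 and 297 FPKM in the PDZK1 libraries. The groups met at 291 FPKM, with a log2 fold change of 0.067 (95% interval -0.019 to 0.15, SE 0.0383, edgeR adjusted p = 0.415). SLC16A1 encodes MCT1, which carries lactate in both directions (ENSG00000155380, chromosome 1, 112911847 to 112957013, minus strand), and had 40.2, 40.2 and 40.6 FPKM in the control and 38.5, 37.6 and 38 FPKM in the PDZK1 libraries. All PDZK1 libraries lay below all control libraries by a small margin (165 ± 1.16 against 155 ± 1.65 CPM). The log2 fold change was -0.094, with a 95% interval of -0.16 to -0.026, and did not pass after adjustment over all genes (edgeR adjusted p = 0.136).

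BSG (ENSG00000172270, chromosome 19, 571277 to 583493, plus strand) had 1074, 1071 and 1071 CPM in the control and 1116, 1094 and 1117 CPM in the PDZK1 libraries. The control libraries were almost equal, and the PDZK1 libraries all lay above them. Their log2 fold change of 0.049 had a 95% interval of -0.028 to 0.13 (SE 0.0342, adjusted p = 0.518), so that a change of 1.5-fold lay outside the interval. The same held for SLC16A1 and SLC16A3.

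For SLC16A3 the stretch before 1 of its 5 RefSeq starts is shown because it holds the hypoxia core ACGTG (in capitals) 2 times, beside the most abundant carrier of the set. It covers the bases before the annotated exon (GRCh38.p14, plus strand, chr17:82228792-82229031).
SLC16A3: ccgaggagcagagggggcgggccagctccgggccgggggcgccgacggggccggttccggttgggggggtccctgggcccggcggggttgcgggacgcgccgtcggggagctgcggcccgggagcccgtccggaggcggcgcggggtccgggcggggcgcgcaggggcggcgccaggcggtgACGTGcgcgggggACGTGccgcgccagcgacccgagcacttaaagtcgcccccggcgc
Starts were found in RefSeq for 8 of the 10 genes, with 13 windows of 250 bases in all, and none was matched for SLC2A3 and SLC16A1. Both strands were searched. ACGTG was found in 4 of the 13 windows (BSG, SLC16A3, SLC2A10 and SLC2A13), against 18.5% of all promoters. Its G form GCGTG was found in 4 windows (BSG, SLC16A3 and SLC2A6), against 32.2% of all promoters. The SLC16A3 windows with GCGTG held no base before an annotated exon of the gene. The E-box CACGTG, which contains ACGTG, was found in 2 windows (BSG and SLC2A13), against 6.34% of all promoters. GGGCGG was found in 9 windows, against 42.6% of all promoters. These matches are letters in a window and not sites of binding.

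Taken per length, SLC2A1 made up 54.7%, 57.8% and 68.8% of the summed FPKM of the 7 GLUT genes in the controls, against 60%, 65.6% and 59.4% under PDZK1 overexpression. The highest share came from control replicate 3. The group means were 60.4 ± 7.43% and 61.7 ± 3.43% (SD, n = 3 each, two-sided exact permutation test p = 0.8, adjusted over 3 relations 0.8). SLC2A6 followed with a mean share of 24% (17.6% to 28.9%), SLC2A3 with 6.25%, SLC2A8 with 3.82%, SLC2A12 with 2.61%, SLC2A13 with 1.55% and SLC2A10 with 0.741%. SLC2A11, a further GLUT gene with a mean of 8.81 FPKM, is not among these 7. The sum itself was 140, 139 and 146 FPKM in the control and 133, 138 and 131 FPKM in the PDZK1 libraries. All PDZK1 libraries lay below all control libraries in this sum, by a small margin (142 ± 3.99 against 134 ± 3.67 FPKM, SD, n = 3 each), and the difference was not tested. Summed over all 14 listed GLUT genes, the control libraries had 149, 147 and 155 FPKM and the PDZK1 libraries 143, 147 and 140 FPKM. There the groups met at 147 FPKM.

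**Figure D3:**
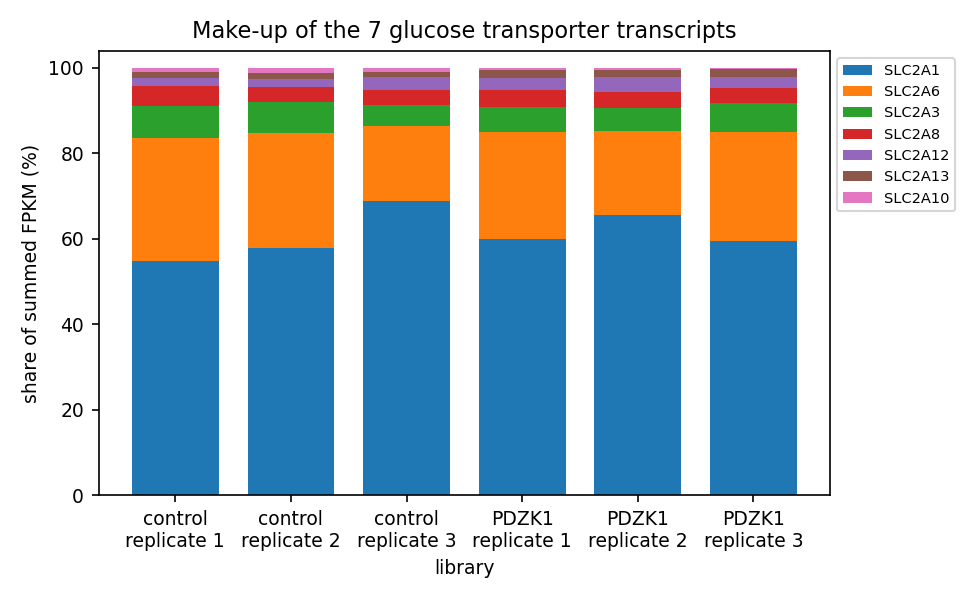
Share of each GLUT gene in the summed FPKM of the 7 genes (stacked bars, percent) in each library. SLC2A1 takes 54.7% to 68.8% and SLC2A6 17.6% to 28.9% in every library, and control replicate 3 has the largest SLC2A1 and the smallest SLC2A6 share.

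The balance of GLUT1 to GLUT3 transcripts, the log2 ratio of SLC2A1 to SLC2A3 FPKM, was 2.87, 2.99 and 3.83 in the control and 3.35, 3.59 and 3.16 in the PDZK1 libraries, and the groups overlapped (exact permutation test p = 0.7, adjusted 0.8). The balance of MCT4 to MCT1 transcripts, the log2 ratio of SLC16A3 to SLC16A1 FPKM, was 2.86, 2.79 and 2.75 in the control and 2.96, 2.95 and 2.97 in the PDZK1 libraries. Here every PDZK1 library was higher, by 0.159 on average. The exact permutation test gave p = 0.1, the smallest that 3 against 3 allows, and 0.3 after adjustment, so the test could not pass in this design. Leaving out one library at a time kept this difference between 0.133 and 0.188.

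Control replicate 3 stood apart from the other control libraries in several of these genes, and it was also the library with the fewest counts. Against the mean of control replicates 1 and 2, its log2 CPM was 0.78 higher for SLC2A12, 0.37 higher for SLC2A1, and lower for SLC2A6 (-0.60) and SLC2A3 (-0.53). Over all genes tested the median size of this deviation was 0.11 and 12.1% of genes exceeded 0.4, as 3 of the 10 did. Its deviation in SLC16A1, SLC16A3 and BSG was at most 0.068 in size. Against the same mean, the PDZK1 libraries lay at 0.53, 0.84 and 0.42 for SLC2A12. They lay at -0.24, -0.55 and -0.22 for SLC2A6 and at -0.40, -0.45 and -0.25 for SLC2A3. In these genes control replicate 3 lay on the same side. The PDZK1 libraries also shared a direction in all other genes of the 10 except SLC2A1. The share of all genes tested that do so was not computed, so this is a description only. A shared direction also need not separate the groups: in SLC2A8 control replicate 2 (-0.14) lay within the PDZK1 values (-0.14, -0.11 and -0.28). For SLC2A1 the PDZK1 values were 0.016, 0.21 and -0.041. Libraries also varied within the PDZK1 group. In SLC2A12, SLC2A1, SLC2A6 and SLC2A3, PDZK1 replicate 2 was the PDZK1 library furthest in the direction of control replicate 3.

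**Figure D4:**
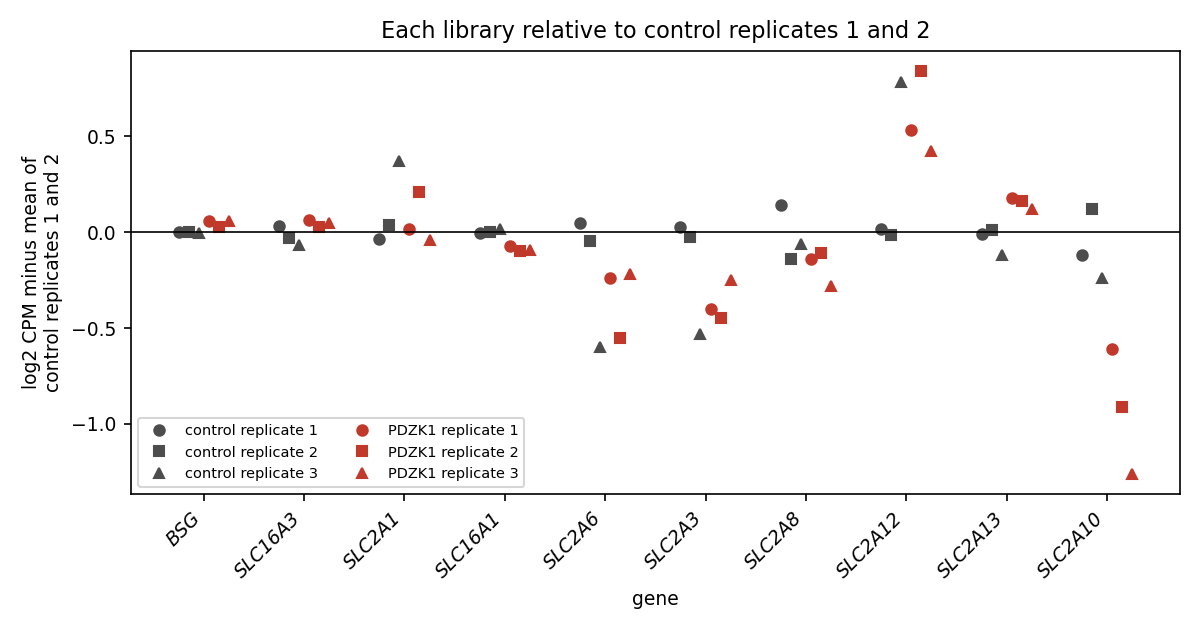
Log2 CPM of each library minus the mean of control replicates 1 and 2, for each gene, with control libraries in grey and PDZK1 libraries in red. Control replicate 3 (grey triangle) lies within the PDZK1 range for SLC2A12 (0.78), below all PDZK1 libraries for SLC2A6 (-0.60) and SLC2A3 (-0.53), and above all of them for SLC2A10 (-0.24).

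Without control replicate 3, 6.32% of 13844 genes passed, and 3 of the 10 genes did. SLC2A10 remained lower, SLC2A3 was lower with a log2 fold change of -0.37 (95% interval -0.52 to -0.21, adjusted p = 0.0105) and SLC2A12 was higher with 0.61 (95% interval 0.34 to 0.88, adjusted p = 0.0183). SLC2A6 gave -0.33 (adjusted p = 0.186). The calls of SLC2A3 and SLC2A12 were therefore made or lost by 1 library, and the reason for its distance was not tested.

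The gene whose level most resembled that of SLC2A1 over the 6 libraries, of 11099 genes searched, was USP16, which encodes a deubiquitinase (Pearson r = 0.997 of log2 CPM). It was followed by PKM, the pyruvate kinase of glycolysis, and NPM1, a nucleolar protein (both 0.996). PKM had 2843, 2918 and 3763 CPM in the control and 2914, 3366 and 2838 CPM in the PDZK1 libraries, again highest in control replicate 3. For SLC16A3 the nearest genes were NCDN (0.989), TSGA10 (0.987) and TRIM39 (0.986). These values describe 6 libraries that share 2 groups and are given with no test.

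The genes that work beside the carriers were read in 5 lists with 74 genes, of which 53 were tested. Of these, 6 passed, 1 higher and 5 lower, which is 11.3% against the 3.83% of all genes tested, and the median log2 fold change was -0.032. The lists were chosen with earlier results of these data known, so the difference between these shares is no test of the lists. Of 7 other GLUT genes only SLC2A11 passed the filter (7.81 to 9.68 FPKM, log2 fold change 0.13, edgeR adjusted p = 0.366), and the rest were nearly silent. The mean of SLC2A11 (8.81 FPKM) was close to that of SLC2A3 (8.6 FPKM), with overlapping ranges. It was above the means of SLC2A8, SLC2A12, SLC2A13 and SLC2A10. SLC2A4, which encodes the insulin-responsive carrier of muscle and fat, had 0 to 14 counts per library, and SLC2A5, the fructose carrier gene, had 0 to 9.

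Of 12 other SLC16 genes, 9 were tested and 1 passed. SLC16A6, which encodes a carrier of ketone bodies and taurine, had 151, 141 and 91 counts in the control and 235, 196 and 253 in the PDZK1 libraries, without overlap. The level rose from 4.18 ± 0.765 to 7.1 ± 1.02 CPM (SD, n = 3 each), a log2 fold change of 0.76 (95% interval 0.37 to 1.15, edgeR adjusted p = 0.0441), and it passed in 7 of 17 alternatives. SLC16A4, among the most abundant of the list, gave a log2 fold change of -0.12 (adjusted p = 0.583). SLC16A8, which encodes MCT3, the lactate carrier of the basal side of native RPE, was low at 0.181 to 0.415 FPKM and gave 0.16 (95% interval -0.72 to 1.04, adjusted p = 0.879). It is named outside the rule for its known place in this tissue.

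Among sodium-coupled and other sugar or lactate carriers, 3 of 11 genes were tested and none passed (1 at an unadjusted p under 0.05). SLC50A1, a sugar carrier of internal membranes, gave -0.015 (adjusted p = 0.946), and SLC37A4, the glucose 6-phosphate carrier of the endoplasmic reticulum, gave -0.22 (adjusted p = 0.163). SLC5A1, the sodium-glucose carrier gene of the gut, was at 0 counts in every library.

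Genes that partner, traffic or control the carriers had 22 of 23 members tested, with none higher and 2 lower. EPAS1, which encodes the oxygen-sensitive factor HIF-2α, had 264, 260 and 270 CPM in the control and 209, 216 and 207 CPM in the PDZK1 libraries. It fell without overlap (log2 fold change -0.33, SE 0.0339, edgeR adjusted p = 0.000895) and passed in all 17 alternatives. ARRDC4, which encodes an arrestin that promotes the removal of GLUT1 from the surface, fell from 8.45 ± 0.268 to 5.6 ± 0.573 CPM (SD, n = 3 each, log2 fold change -0.59, edgeR adjusted p = 0.0272), and passed in 8 of 17. HIF1A (-0.073, adjusted p = 0.404) and GIPC1, a PDZ protein that binds the tail of GLUT1 (-0.06, adjusted p = 0.395), did not pass. TXNIP, the glucose-induced relative of ARRDC4, is named after its values were seen. It had 1.86, 2.53 and 5 CPM in the control and 4.12, 5.03 and 4.26 CPM in the PDZK1 libraries, with a log2 fold change of 0.52 (adjusted p = 0.489), and of 1.03 without control replicate 3 (adjusted p = 0.0198).

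Of the enzymes and carriers next to transport, 18 of 21 were tested, none was higher and 3 were lower. HK2, which encodes a hexokinase that traps imported glucose, had 36.1, 38.8 and 36.8 CPM in the control and 28.8, 28.6 and 28.3 CPM in the PDZK1 libraries. It fell without overlap (log2 fold change -0.38, SE 0.0541, edgeR adjusted p = 0.00454) and passed in 16 of 17 alternatives. HK1, another hexokinase gene named outside the rule, was more abundant per length (mean 89.1 against 5.38 FPKM). Its log2 fold change was -0.081 (95% interval -0.15 to -0.011) and did not pass (edgeR adjusted p = 0.209). PDK1, a kinase that holds back pyruvate dehydrogenase, fell from 47 ± 6.1 to 32 ± 2.62 CPM (SD, n = 3 each, log2 fold change -0.55, edgeR adjusted p = 0.0195), and passed in 10 of 17. PDK2, PDK3 and PDK4, kinases of the same dehydrogenase, are named outside the rule and did not pass. PDK2 was more abundant per length than PDK1 (mean 13.3 against 5.53 FPKM) and gave 0.02 (edgeR adjusted p = 0.942). PDK3 gave -0.1 (edgeR adjusted p = 0.541) and PDK4 gave 0.34 (edgeR adjusted p = 0.36). PDHB, a subunit of that dehydrogenase, fell by 0.19 on the log2 scale (edgeR adjusted p = 0.0292), and passed in 8 of 17. LDHA, the enzyme that makes lactate from pyruvate, had 846, 975 and 1322 CPM in the control and 745, 1063 and 686 CPM in the PDZK1 libraries. It scattered widely within both groups (log2 fold change -0.33, 95% interval -1.04 to 0.37, adjusted p = 0.608), whereas LDHB did not (0.015, 95% interval -0.10 to 0.13, adjusted p = 0.926).

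**Figure D5:**
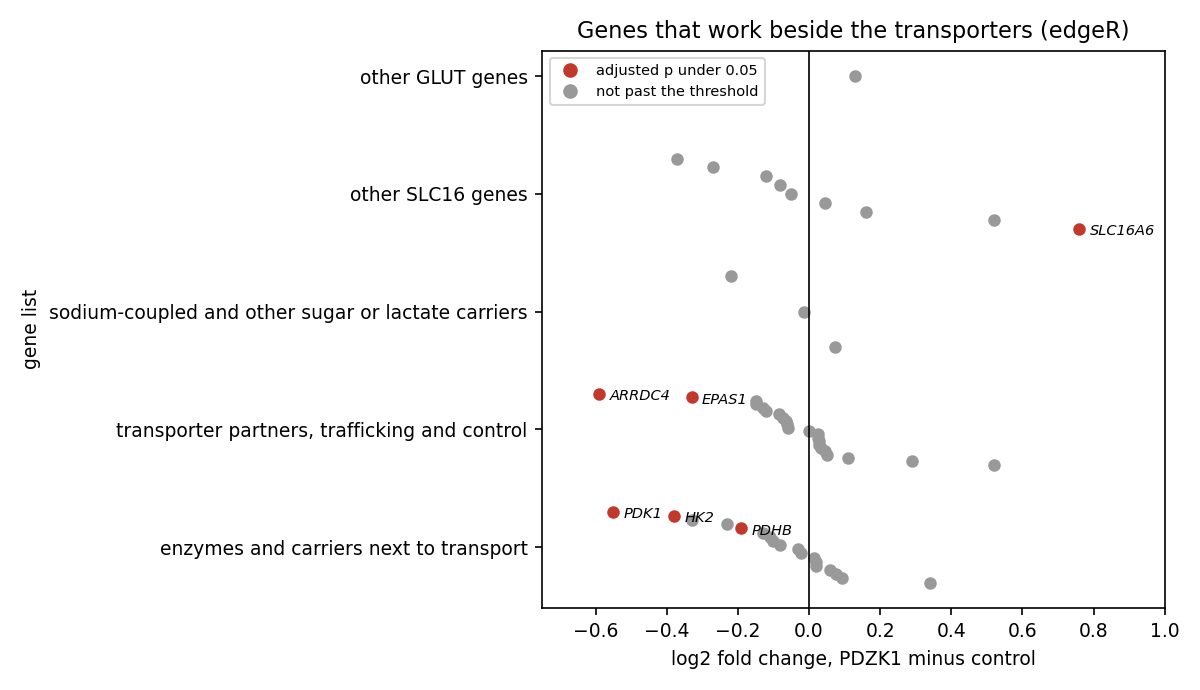
Log2 fold change, PDZK1 minus control, of the 53 tested genes in 5 lists of genes that work beside the carriers, each point 1 gene and red where the adjusted p was under 0.05. SLC16A6 (0.76) is the one gene that passed on the higher side, and ARRDC4, EPAS1, PDK1, HK2 and PDHB passed on the lower side.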

How the data were processed

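RNA of 6 ARPE-19 libraries (total RNA, VAHTS Universal V6 kit) was sequenced by a company. The submitters' processing notes name fastp 0.20.1, HISAT2 2.2.1 and GRCh38. The counting program, annotation release and strandedness are not given in the sources used here. The authors deposited estimated counts per gene as whole numbers, unscaled, and FPKM per gene, which the authors scaled by transcript length and mapped fragments. Because the entries carry default names of assembled loci, counts were read as estimates, in which near copies can share reads. Both tables hold a further 3 per-sample columns that matched no sample and were not used. Entries named as assembled loci (853 of 21314, 0.519% to 0.536% of counts) were left out. Coordinates are from GENCODE 29.

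Genes passing filterByExpr (13645) were tested with edgeR 4.0.16 (R 4.3.3, TMM, robust quasi-likelihood test, no covariates), and p-values were adjusted by Benjamini-Hochberg over all of them at a threshold of 0.05. The script was tested on simulated data. The biological coefficient of variation was 0.0995. Ratios and shares used two-sided exact permutation tests (scipy 1.17.1). A count of 3, the most a count of 0 allows, equals 0.0919 to 0.108 CPM and covers counting error only. The length behind an FPKM was the count scaled to the library total over FPKM, with each library's median over genes set equal.

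The genes and lists were chosen with earlier results of these data known. The text names the 10 genes, PDZK1, SLC2A14, the list genes past the threshold, the 2 of highest mean FPKM per list, and the 3 genes most like SLC2A1 and SLC16A3, and says where it names others; marker genes and low-count carriers are given as checks. One gene that this rule names is not reported here. Alternatives (17 fits) were DESeq2 1.42.0, 3 other scalings, 2 other count filters, a non-robust fit, limma 3.58.1 on log2(FPKM + 1) and log2(FPKM + 0.1) for genes with mean FPKM from 0.5 upwards, the former also unfiltered, the replicate number as a block, and each library left out.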

Additional observations from a re-analysis of the deposited data

How the results depend on the processing

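Of 171 values of the 10 genes under alternatives, 157 kept their direction and side of the threshold, 11 were no longer past it (SLC2A10), 2 passed it newly (SLC2A3 and SLC2A12, without control replicate 3) and 1 turned (SLC2A1, -0.15 to 0.064 with one library left out, above 0 without control replicate 3 and not past the threshold). The number of the 10 genes past the threshold was 0 rather than 1 with library totals only, with log2(FPKM + 1) with and without the filter, with log2(FPKM + 0.1), without the robust option and with the replicate block, and 0 to 3 with one library left out. SLC2A10 had an adjusted p of 0.0509 with library totals only, 0.0725 without the robust option and 0.0898 on log2(FPKM + 0.1). Over all genes 522 passed, against 806 by DESeq2, 184 on log2(FPKM + 1), 185 on it without the filter, 185 on log2(FPKM + 0.1), 163 with the replicate block, and 181 (without PDZK1 replicate 1) to 875 (without control replicate 3) with one library left out. In the lists beside the carriers 6 genes passed, against 2 on log2(FPKM + 1) and log2(FPKM + 0.1), 1 on log2(FPKM + 1) without the filter, 2 (HK2 and EPAS1) with the replicate block, and 2 to 7 with one library left out (7 without control replicate 3, TXNIP added). The cause of these moves was not tested.

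Same-numbered libraries did not deviate together (residual correlations -0.0462, -0.056 and -0.143), so the numbers were not taken as pairs. The difference in the SLC2A1 share ranged from -1.61 to 5.45 percentage points and that in log2 SLC2A1:SLC2A3 from -0.0459 to 0.434 with one library left out. SLC50A1 turned to 0.0029 with library totals only and ranged from -0.058 to 0.052 with one library left out, and LDHB from -0.021 to 0.073. Adding the SLC2A14 counts to SLC2A3, an alternative chosen after seeing the data, gave -0.21 (edgeR adjusted p = 0.555). With so few counts added this could hardly differ, and it does not show how many reads the copies share. No scaling moved the median of all genes by more than 0.018 on the log2 scale. At 72 to 185 counts per library SLC2A10 carries more counting error than the other 9 genes, and genes at 0 to 14 counts allow no statement on change.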

Other observations

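Among the GLUT genes left out of the test for low counts, SLC2A9, which encodes a urate carrier, had 4, 8 and 7 counts in control replicates 1 to 3 and 0 in each PDZK1 library. It was picked out after its values were seen. In the fit on all genes with at least 1 count it did not pass (edgeR, 16341 genes, adjusted p = 0.108), and with 19 counts in all no level can be compared. SLC2A14 had 21 counts in the control and 23 in the PDZK1 libraries, SLC2A4 had 14 and 20, and SLC2A5 had 11 and 19.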
